A study of Mus musculus with 16 samples.

Results

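The 4 genes of Hox paralogous group 13, Hoxa13, Hoxb13, Hoxc13 and Hoxd13, were followed across whole mouse kidneys that lacked the histone methyltransferases Ezh2 and Ezh1 in different combinations. Their members were taken by RefSeq accession, and each gene had 1 probe: A_55_P1970075 for Hoxa13 (NM_008264), A_55_P2163033 for Hoxb13 (NM_008267), A_55_P2104219 for Hoxc13 (NM_010464) and A_52_P591310 for Hoxd13 (NM_008275). These are 4 of the 39 Hox genes on the array, 4 of 22911 genes with a symbol and 4 of 56605 probes. The genes were singled out with their group values already in view, so those values are a description and no test is given for them.

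Total RNA of C57BL/6 kidneys at embryonic day 17.5 was hybridised to 16 Agilent arrays of 2 dyes, 4 per genotype. The control group is labelled control and wildtype. The Ezh2-KO group (EZH2-KO & EZH1-WT) had homozygous conditional loss of Ezh2 from Six2-positive nephron progenitors and intact Ezh1, the Ezh1-het group (EZH2-KO & EZH1-hetKO) had in addition lost 1 germline Ezh1 allele, and the double knockout (EZH2-KO & EZH1-homoKO) had lost both. All 3 mutant groups thus share the Ezh2 deletion, which is limited to progenitors and the cells that descend from them, while the Ezh1 loss is in every cell of the organ. Each array carried its sample in Cy5 and the RNA of control 1 in Cy3, with no dye swap, and control 1 was hybridised against itself. Values are log2(Cy5/Cy3), so 0 means the level of control 1, and the series' design text calls the 4 samples of a genotype biological replicates. Because whole organs were used, more cells with a transcript and more transcript per cell cannot be told apart, nor can the deleted progenitors and the other cells.

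Hox genes encode homeodomain transcription factors that lie in 4 clusters, and their order along a cluster matches the order of their expression domains along the body axis. Group 13 sits at the 5′ end of each cluster and is active last and most caudally, in the tail bud, the digits, the hindgut and the genital tubercle, whereas the kidney forms in a domain of more anterior groups such as group 11. Ezh2 and Ezh1 are alternative catalytic subunits of the Polycomb complex PRC2, which methylates histone H3 on lysine 27, and Hox clusters are among its best known targets.

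PRC2 targets typically start in CpG-rich DNA, so the 250 bases upstream of the RefSeq start are shown for the members that had an entry, 2 of the 4 (Hoxa13 and Hoxd13). The windows are chr6:52260881-52261130 on the minus strand for Hoxa13 and chr2:74667975-74668224 on the plus strand for Hoxd13 (GRCm38.p6), written 5′ to 3′ toward the gene, with each CpG in capitals.
Hoxa13: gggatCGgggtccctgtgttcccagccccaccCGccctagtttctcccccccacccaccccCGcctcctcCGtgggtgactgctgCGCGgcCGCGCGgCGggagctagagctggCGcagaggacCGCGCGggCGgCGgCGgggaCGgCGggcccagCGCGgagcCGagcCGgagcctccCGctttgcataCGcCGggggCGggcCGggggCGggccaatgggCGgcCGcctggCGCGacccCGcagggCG
Hoxd13: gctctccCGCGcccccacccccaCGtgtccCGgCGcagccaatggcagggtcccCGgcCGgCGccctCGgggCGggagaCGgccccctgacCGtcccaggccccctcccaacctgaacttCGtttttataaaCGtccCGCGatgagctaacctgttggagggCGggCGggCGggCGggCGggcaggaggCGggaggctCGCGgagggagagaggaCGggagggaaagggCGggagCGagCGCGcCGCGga
The Hoxa13 window held 35 CpG and was 80.0% G or C, and the Hoxd13 window held 31 CpG and was 74.4% G or C. The median of all 32851 windows in the table was 6 CpG and 52.4%, and 2.97% of windows had at least as many CpG as Hoxa13 and 5.19% at least as many as Hoxd13. Searched on both strands with overlapping copies counted, the GC box GGGCGG occurred 5 times in Hoxa13 and 7 times in Hoxd13 (32.7% of windows hold it), and CCAAT occurred once in each (33.8% of windows). TATAAA was found in the Hoxd13 window as an overlapping pair on opposite strands, 126 and 124 bases before the start, and not in that of Hoxa13 (12.4% of windows). The posterior Hox type motifs CAATAAA (4.2% of windows) and TCGTAAA (0.478%) were in neither. Methylation and binding at these windows were not measured.

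The arrays followed the labels where they could be checked. Ezh1 was at -0.08 ± 0.26 (SD, n = 4) in controls, 0.05 ± 0.33 in Ezh2-KO, -1.13 ± 0.21 in Ezh1-het, with -4.55 ± 0.08 in the double knockout. Of 5 Ezh2 probes, A_51_P248067 was at 0.09 ± 0.43 in controls and at -3.32 ± 0.34, -3.44 ± 0.31 and -3.09 ± 0.28 in the mutant groups in the same order, while the group means of the other 4 probes lay between -0.45 and 0.29. Kidney identity was plain, since all 7 nephron progenitor markers were well above background on all 16 arrays, as were 8 to 11 of 12 markers of other kidney cell types on every array of a group. Between 53.1% and 63.4% of probes per array were well above background in Cy5, lowest on control 2, and no spot was saturated.

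In control kidneys none of the 4 group 13 probes was well above background in Cy5 on any array, and in the double knockout all 4 were on every array. The Ezh1-het group lay between them, with Hoxa13, Hoxb13 and Hoxd13 on 4 of 4 arrays and Hoxc13 on 0 of 4. In Ezh2-KO kidneys Hoxa13 was well above background on 1 array, Hoxd13 on 2, and Hoxb13 and Hoxc13 on 0. All 4 genes passed the filter for dim probes (at least 4 of 16 arrays), Hoxc13 only through the double knockout, so that they passed because of the groups in which they are high.

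Hoxd13 is known for shaping digits and the genital tubercle. Its log2 ratio on arrays 1 to 4 was 0.22, -0.06, -0.05 and -0.19 in controls, -0.04, -0.01, 0.20 and 0.32 in Ezh2-KO, 1.07, 1.29, 1.04 and 1.05 in Ezh1-het, with 2.41, 2.12, 2.70 and 2.54 in the double knockout. Control and Ezh2-KO arrays overlap, every Ezh1-het array lies above both, and every double-knockout array lies above every Ezh1-het array. The group means were -0.02 ± 0.17, 0.12 ± 0.17, 1.11 ± 0.12 and 2.44 ± 0.25 (SD, n = 4 each). The double knockout was 2.46 above control (SE 0.124), a level at least 5.52-fold higher, and the Ezh1-het group was 1.14 above control, at least 2.20-fold higher. The words at least are used because no control array was well above background. The fold itself is that of the ratio, which was smaller than the bound from Cy5. It makes no allowance for sampling error, and a single slide can lie below it. With no dye swap it is also open to dye bias. The raw signal gives the same order without a ratio. Cy5 spot minus background was -5 to 10 scanner units in controls, 2 to 46 in Ezh2-KO, 154.5 to 214.5 in Ezh1-het, with 597 to 1017 in the double knockout.

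Hoxb13, known from the prostate, the tail and the distal gut, had a similar range. Its log2 ratio on arrays 1 to 4 was -0.03, 0.08, -0.10 and 0.15 in controls, 0.01, 0.02, 0.30 and 0.23 in Ezh2-KO, 1.38, 0.81, 0.97 and 0.90 in Ezh1-het, with 2.86, 2.24, 2.35 and 1.79 in the double knockout. The means were 0.03 ± 0.11, 0.14 ± 0.15, 1.02 ± 0.25 and 2.31 ± 0.44, with the same separation of groups as for Hoxd13. Its spread within the double knockout was the widest of the 4 genes. The double knockout stood 2.28 above control (SE 0.174, at least 4.87-fold higher) and the Ezh1-het group 0.99 (at least 1.99-fold higher). Cy5 spot minus background was -8.5 to 0 units in controls, -10 to 23.5 in Ezh2-KO, 197 to 345.5 in Ezh1-het, with 410 to 1190.5 in the double knockout.

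Hoxa13, needed for digits, hindgut and the lower urogenital tract, had a smaller step between the groups with partial and full Ezh1 loss. Its log2 ratio on arrays 1 to 4 was -0.07, -0.02, 0.17 and 0.19 in controls, 0.18, 0.03, 0.31 and 0.05 in Ezh2-KO, 1.24, 1.07, 0.79 and 0.91 in Ezh1-het, with 1.57, 1.66, 1.63 and 1.11 in the double knockout. Double-knockout array 4 falls inside the Ezh1-het range, and the other 3 lie above it. The means were 0.07 ± 0.13, 0.14 ± 0.13, 1.00 ± 0.19 and 1.49 ± 0.26. The double knockout stood 1.42 above control (SE 0.125, at least 2.68-fold higher) and the Ezh1-het group 0.93 (at least 1.91-fold higher). Cy5 spot minus background was -7.5 to 12 units in controls, 3.5 to 41.5 in Ezh2-KO, 114 to 163 in Ezh1-het, with 155 to 427 in the double knockout.

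Hoxc13, a regulator of hair and nail keratin genes, was well above background in the double knockout alone. Its log2 ratio on arrays 1 to 4 was -0.13, -0.11, -0.06 and -0.01 in controls, -0.06, -0.11, -0.09 and -0.06 in Ezh2-KO, 0.26, 0.07, 0.08 and 0.11 in Ezh1-het, with 0.84, 0.46, 1.00 and 0.57 in the double knockout. The means were -0.08 ± 0.05, -0.08 ± 0.03, 0.13 ± 0.09 and 0.72 ± 0.25. The double knockout stood 0.79 above control (SE 0.098, at least 1.73-fold higher). For the Ezh1-het group the difference was 0.21, which was -0.00 with median centring. Neither group was well above background on any array, so no fold is given. Cy5 spot minus background was -6.5 to 6 units in controls, -8 to 5 in Ezh2-KO, 12.5 to 28 in Ezh1-het, with 108.5 to 209 in the double knockout.

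**Figure D1:**
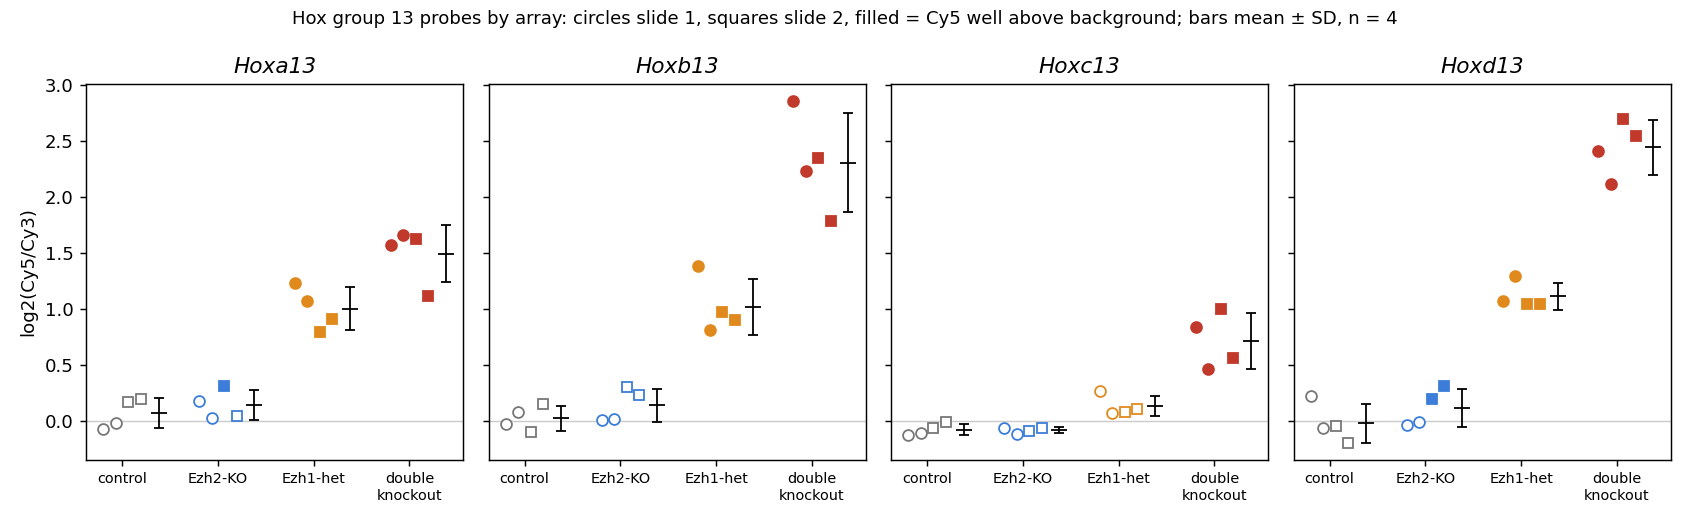
Log2(Cy5/Cy3) of the 4 group 13 probes on each of the 16 arrays by genotype, with circles for slide 1, squares for slide 2, filled symbols where Cy5 was well above background, and black bars for the mean ± SD of 4 arrays. Control and Ezh2-KO arrays overlap for every gene, and double-knockout arrays lie highest but for Hoxa13 on array 4 (1.11), inside the Ezh1-het range, and reach up to 2.86 for Hoxb13 and 2.70 for Hoxd13.

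**Figure D2:**
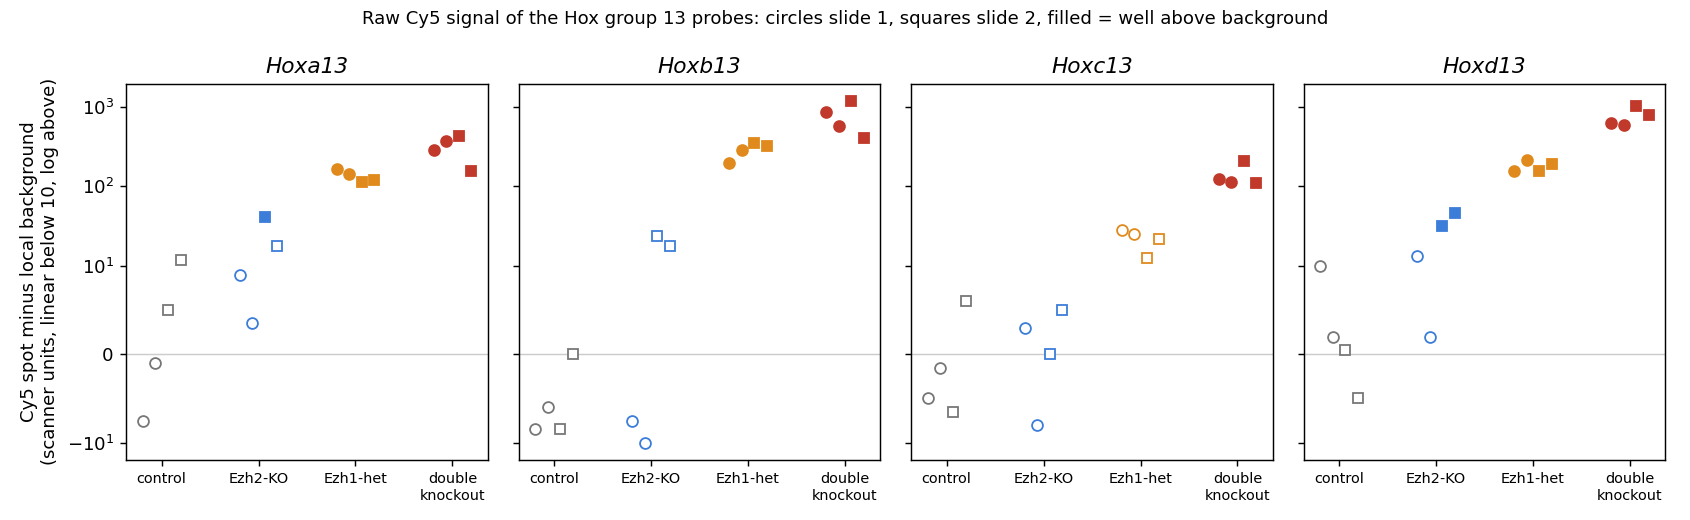
Raw Cy5 spot minus local background in scanner units on each array, on an axis that is linear below 10 and logarithmic above, with the same symbols. Controls lie between -8.5 and 12 for all 4 probes, and double-knockout arrays between 108.5 for Hoxc13 and 1190.5 for Hoxb13. Levels of different probes are not comparable.

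Set against all 15646 genes tested, the counts are as follows, and since the members were chosen on these contrasts nothing is read from them. All 4 members had double-knockout arrays above every control array, where 6.35% of genes did, and all 4 had Ezh1-het arrays above every control array, where 12.6% did. None of the 4 had Ezh2-KO arrays that lay above every control array, where 7.91% of genes did. Between the mutant groups, all 4 lay higher in Ezh1-het than in Ezh2-KO without overlap (1.99% of genes), all 4 higher in the double knockout than in Ezh2-KO (3.09%), and 3 higher in the double knockout than in Ezh1-het (2.83%), Hoxa13 being the exception.

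Across the groups that share the Ezh2 deletion and differ in Ezh1 alleles, the 2 steps were of unlike size among the genes. Hoxd13 was 1.00 higher in Ezh1-het than in Ezh2-KO and a further 1.33 higher in the double knockout (2.51-fold). Hoxb13 was 0.88 and then 1.29 higher (2.45-fold). Its first step is at least 1.84-fold, since no Ezh2-KO array was well above background. On Cy5 alone the steps of Hoxb13 were 1.69 and 1.23, so which was larger depends on the measure. Those of Hoxd13 were 1.13 and 1.68. With the software's ratio Hoxd13 stood 1.34, 4.22 and 5.91 above control in Ezh2-KO, Ezh1-het and the double knockout. Its larger step was then the first, so the order of its steps depends on the processing too. Hoxa13 had its larger step first, 0.86 and then 0.49 (1.40-fold), and Hoxc13 its larger step last, 0.21 and then 0.59 (at least 1.5-fold). With the software's ratio Hoxc13 stood at 0, 1.22 and 2.43 from control in the 3 groups, so its steps were then nearly equal. On the linear Cy5 scale, the Ezh1-het group stood at 39.5% of the way from control to double knockout for Hoxa13, 33.8% for Hoxb13, 21.4% for Hoxd13 and 14.1% for Hoxc13. With each array of the 3 groups left out in turn these shares ran from 33.9% to 43.6%, 29.5% to 38.2%, 20.4% to 22.7% and 12.7% to 16%. Such ranges are not intervals of sampling error, so the genes are not ranked by them. The control level under these shares is a signal not well above background for all 4 probes, and so is the Ezh1-het level of Hoxc13.

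Ratios gave smaller differences than the Cy5 level here. The Cy5 level alone, a setting chosen after seeing the data, put the double knockout 1.94, 3.06, 1.24 and 3.01 above control for Hoxa13, Hoxb13, Hoxc13 and Hoxd13, against 1.42, 2.28, 0.79 and 2.46 for the ratio. This level was taken after loess and Aquantile scaling, which use both dyes, so it is not free of Cy3. After normalisation the Cy3 level of the Hoxd13 probe was 6.66 ± 0.09 in the double knockout and 6.12 ± 0.07 in controls on the log2 scale, although its raw Cy3 signal over background was -2 to 10 units on all 16 arrays and its Cy3 RNA was the same throughout. Single ratios of these probes therefore carry an uncertainty from normalisation that the SE does not include.

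Each slide held 2 arrays of every genotype, slide 1 replicates 1 and 2 and slide 2 replicates 3 and 4. The difference between double knockout and control was 1.66 on slide 1 and 1.19 on slide 2 for Hoxa13, 2.52 and 2.05 for Hoxb13, 0.77 and 0.82 for Hoxc13, and 2.19 and 2.74 for Hoxd13. Between Ezh1-het and control it was 1.20 and 0.67 for Hoxa13, 1.07 and 0.91 for Hoxb13, 0.29 and 0.13 for Hoxc13, and 1.11 and 1.17 for Hoxd13. The order of the 3 groups thus held on each slide for all 4 genes. In Ezh2-KO, Hoxd13 was -0.10 from control on slide 1 and 0.38 on slide 2, and both arrays with a signal well above background (31.5 and 46 units) were on slide 2. Hoxb13 had -7.5 and -10 units on the slide 1 arrays of that group and 23.5 and 18 on slide 2, none well above background. The cell-cycle inhibitor gene Cdkn2a stood at 0.15 and 0.61 on slide 1 and at 2.01 and 2.08 on slide 2 in the same group. By the ratio Hoxa13 and Hoxc13 did not run this way, at 0.15 and 0.03 from control on slide 1 and at -0.003 and -0.04 on slide 2. In raw Cy5, Hoxa13 had 9 and 3.5 units on the slide 1 arrays of that group and 41.5 and 18 on slide 2. Its 1 array well above background there was Ezh2-KO 3, on slide 2. Controls of Hoxa13 were also higher on slide 2, with a mean of 8.5 units against -4.25. Signal over background was also highest on Ezh2-KO 3 and 4 within that group, at 13.1 and 16.6 for the 75th percentile of Cy5 against at most 10.9 on Ezh2-KO 1 and 2, and its part in the result was not tested.

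The Hoxb13 probe had a further feature in the reference channel. Its Cy3 signal, from the same control 1 RNA on every array, was well above background on 4 arrays, at 29 units on Ezh1-het 2, 42.5 on Ezh1-het 3, 28 on Ezh1-het 4 and 27 on double knockout 3, and between -3 and 6 units on the other 12. Cy3 was well above background on 4 arrays for 443 of 56605 probes, and on exactly these 4 for this probe alone. The Cy3 signal lowers the ratio on those arrays, and the Cy5 level alone put Ezh1-het 1.84 above control for Hoxb13, where the ratio gave 0.99. For the other 3 members Cy3 was not well above background on any array.

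**Figure D3:**
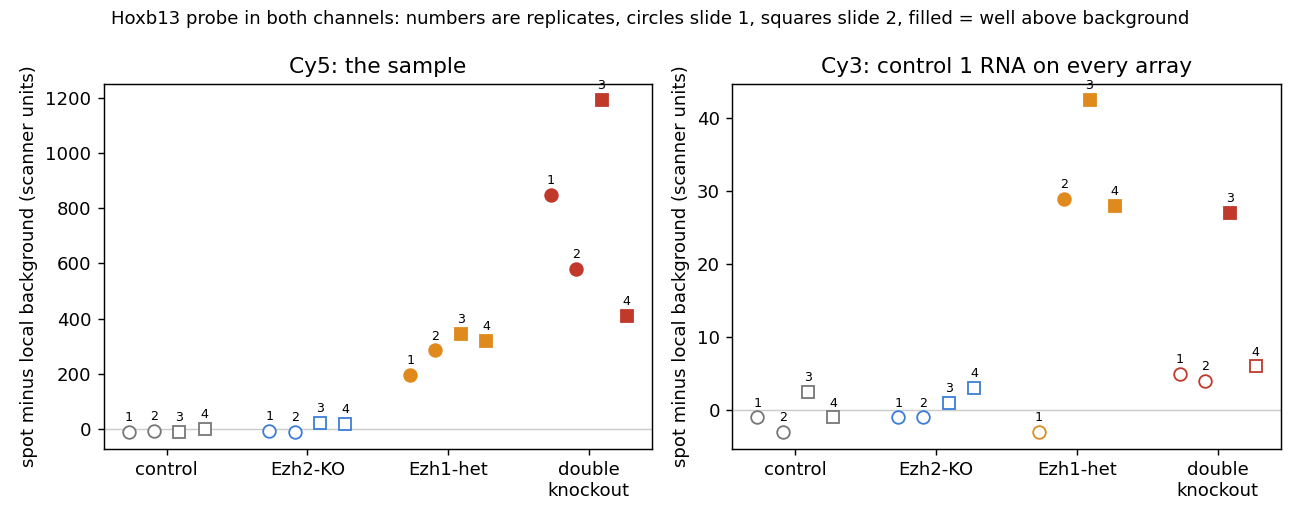
Spot minus local background of the Hoxb13 probe in Cy5 (left, the sample) and Cy3 (right, control 1 RNA on every array), in scanner units, by genotype and replicate number, filled where well above background. Cy5 reaches 1190.5 units on double knockout 3, and Cy3 lies at 27 to 42.5 units on 4 arrays and at 6 or less on the other 12.

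The 4 members ran together across genotypes and less so within them. Over the 16 arrays Pearson's r between pairs of members was 0.873 (Hoxa13 and Hoxc13) to 0.953 (Hoxb13 and Hoxd13), a value set mostly by the group means. For deviations from the group means, r was 0.59 for Hoxa13 with Hoxb13, 0.58 for Hoxb13 with Hoxc13, 0.41 for Hoxa13 with Hoxc13 and 0.36 for Hoxc13 with Hoxd13, and -0.07 and -0.21 for Hoxd13 with Hoxb13 and Hoxa13. All points share the Cy3 RNA and each array its labelling and hybridisation. In the double knockout, array 4 was lowest for Hoxa13 and Hoxb13 and array 2 for Hoxc13 and Hoxd13.

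The genes whose ratios ran most like the members', the 5 with the highest r over 16 arrays for each, were few and partly shared. Nrn1, which encodes a neurite growth factor, was among the 5 for Hoxa13, Hoxb13 and Hoxc13 (r of 0.94, 0.96 and 0.95), and the eye homeobox gene Vax2 for Hoxa13, Hoxb13 and Hoxd13 (0.94, 0.96 and 0.96). Cdkn2c, a cyclin-dependent kinase inhibitor gene, appeared for Hoxa13 and Hoxd13 (0.94 and 0.96), Gm11538 for Hoxb13 and Hoxd13 (0.97 and 0.98), and Tbx15, a T-box factor of limb and skeleton, for Hoxc13 and Hoxd13 (0.97 each). Onecut2 for Hoxb13 (0.97), the forkhead genes Foxa1 and Foxf1 for Hoxc13 (0.96 and 0.95) and Hoxb13 itself for Hoxa13 (0.95) were also among the 5. Of all genes tested, 67 (0.428%) had no control array and all double-knockout arrays well above background, and 34 (0.217%) also all Ezh1-het arrays. Hoxa13, Hoxb13 and Hoxd13 are among the 34, as are the homeobox, paired-box and forkhead genes Alx4, Pax9 and Foxf1.

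Most other Hox genes of the same clusters were already active in control kidneys. Of the 35 Hox genes of groups 1 to 12, 32 were well above background on all 4 control arrays and 3 (Hoxb1, Hoxc12 and Hoxd1) on none, and 34 were tested. Hoxc12, the neighbour of Hoxc13, was the one gene of groups 9 to 12 called higher. Its ratio was 0.99, 1.01, 0.80 and 0.55 on the double-knockout arrays and -0.04 to 0.14 on the other 12, it was well above background on the double-knockout arrays alone, and it stood 0.78 above control (SE 0.089, at least 1.72-fold higher). Like Hoxc13 it passed the filter only through the double knockout, so its call is no support for a difference and its p is not given.

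Of the 12 genes of groups 9 to 12, 2 were called between double knockout and control, where 4.62% of all genes were (3.71% higher and 0.914% lower), and the list's median difference was -0.14 beside 0.01 for all genes. The other call was Hoxd11, a gene that patterns the kidney with Hoxa11, which fell by 0.54 (SE 0.139, limma adjusted p = 0.0345). This call ended when control 2, 3 or 4 or double knockout 1, 3 or 4 was left out (-0.55 to -0.46), and with median centring (-0.21). Hoxd12, the neighbour of Hoxd13, was well above background on all 16 arrays and at 0.26 (SE 0.203, limma adjusted p = 0.574), with arrays at -0.01, 0.28, 0.12 and 0.64 against -0.13, -0.26, 0.67 and -0.27 in controls. Hoxa11 and Hoxc11 were at -0.20 and 0.52, Hoxa10, Hoxc10 and Hoxd10 at -0.46, -0.17 and -0.13, and Hoxa9, Hoxb9, Hoxc9 and Hoxd9 at -0.55, 0.43, -0.14 and 0.05, none past the threshold.

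In Ezh1-het and Ezh2-KO 0 of the 12 were called by limma, where 7.81% and 3.08% of all genes were. At an unadjusted p under 0.05, 6 and 2 of the 12 passed, where 25.4% and 21.3% of all genes did. Their medians were -0.34 and -0.11 beside 0.05 and 0.06 for all genes. With median centring they were 0.23 and 0.31 (0.38 in the double knockout), beside 0.44 and 0.41 (0.38) for all genes, so the sign of these medians depends on the scaling.

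Of the 22 tested genes of groups 1 to 8, 2 were higher and 1 lower in the double knockout (3.71% and 0.914% of all genes), 2 higher and 2 lower in Ezh1-het (5.91% and 1.9% of all genes), and 1 higher and 0 lower in Ezh2-KO (2.4% and 0.677%). Hoxd1 passed the filter through mutant arrays alone, so its calls are no support for a difference. It was at least 1.26-fold higher in the double knockout (0.33, SE 0.075), a call lost without control 4 (0.29). In Ezh1-het it was at least 1.22-fold higher (0.28, on 3 of 4 arrays). That call was lost with median centring (0.17). It was also lost without any of 6 single arrays (control 2, 3 or 4 or Ezh1-het 1, 2 or 4, 0.24 to 0.30). Hoxb3 fell by 0.92 in the double knockout and by 1.06 in Ezh1-het (SE 0.232), the first call lost without control 2 or double knockout 1, 3 or 4 (-0.90 to -0.72) and with median centring (-0.46), which gave -0.58 for the second. Hoxa6 fell by 0.68 in Ezh1-het, a call that ended without control 2 or 3 and without any array of that group (-0.72 to -0.45), and with median centring (-0.29).

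**Figure D4:**
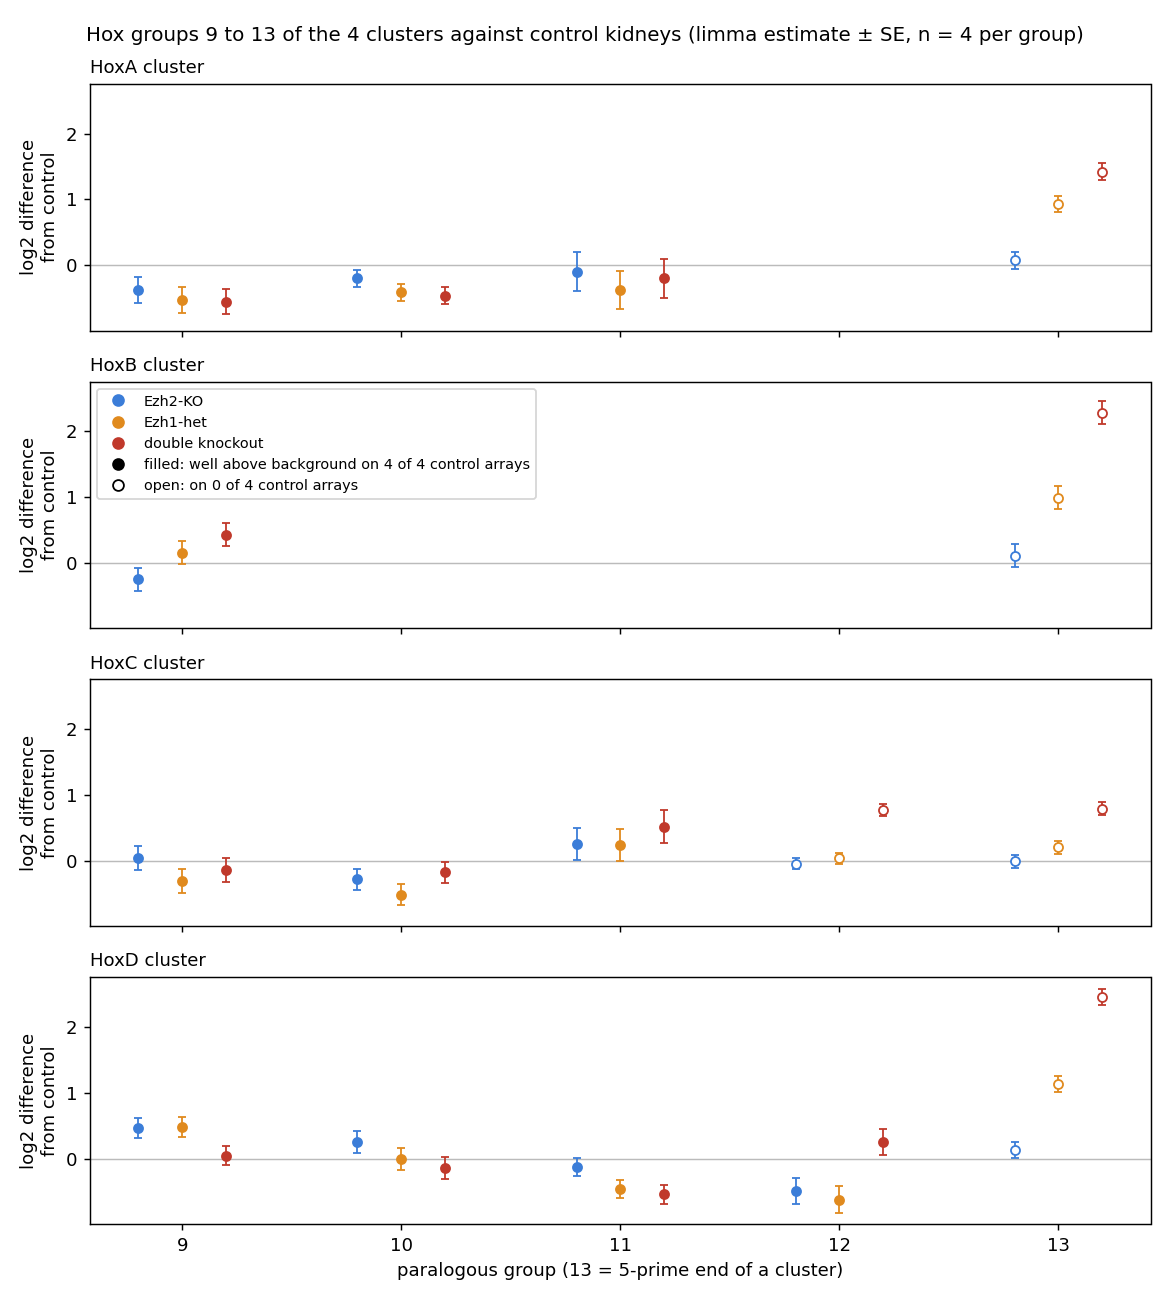
Log2 difference from control (limma estimate ± SE, n = 4 per group) of the tested Hox genes of groups 9 to 13, by cluster and paralogous group, for the 3 mutant genotypes, with filled symbols for genes well above background on 4 of 4 control arrays and open ones for genes on 0 of 4. The open symbols at group 13 reach 1.42, 2.28, 0.79 and 2.46 in the double knockout, Hoxc12 is at 0.78, and the filled genes lie between -0.62 and 0.52.

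Genes beside or inside the clusters that are no Hox coding gene were followed as a list. Of 27 listed, 19 were tested, and 1 was called higher in each comparison and 1 lower in Ezh2-KO and in Ezh1-het, beside the shares of all genes given above (in Ezh2-KO 2.4% higher and 0.677% lower, in Ezh1-het 5.91% and 1.9%, with 3.71% higher in the double knockout). Evx2, the homeobox gene next to Hoxd13, was well above background on all 16 arrays and at 0.08 from control in Ezh2-KO, 0.00 in Ezh1-het, with 0.08 in the double knockout (SE 0.091). Evx1, next to Hoxa13, was well above background on 1 of 16 arrays and was not tested, and the long non-coding RNA Hottip, which starts beside Hoxa13, was at -0.09, -0.10 and -0.10 (SE 0.070). The gene called higher was Skap2, an adaptor protein gene near the HoxA cluster, which rose by 1.05, 1.13 and 0.75 (SE 0.127, limma adjusted p of 0.000727, 0.000103 and 0.00199). Hoxb5os, an antisense transcript of the HoxB cluster, fell by 0.91 in Ezh2-KO (SE 0.141, limma adjusted p = 0.00273), lost with median centring (-0.37), and by 0.52 in Ezh1-het. The second call was lost without any of 6 single arrays (control 1, 3 or 4 or Ezh1-het 2, 3 or 4, -0.53 to -0.46) and turned to 0.088 with median centring.

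Among the 9 genes of the TALE homeodomain partners of Hox proteins, 2 were called higher in the double knockout (3.71% of all genes). Meis1 rose by 0.86 (SE 0.166, limma adjusted p = 0.00514), a call lost without controls 2 and 3 together (0.59). Pbx3 rose by 0.43 (SE 0.091, limma adjusted p = 0.00982), a call lost in the fit of only the groups compared. Meis1 was also higher in Ezh2-KO (0.80), lost without Ezh2-KO 2 (0.79), without controls 2 and 3 together (0.53) and in the fit of only the groups compared. Meis1 was higher in Ezh1-het too (0.56). That call needed each of controls 1, 2 and 3 and Ezh1-het 2, 3 and 4 (0.39 to 0.59). Of 21 other settings 15 ended it, among them offset 10, no background correction and the software's ratio. Meis2 fell in Ezh1-het by 0.73, a call that needed each of controls 2 and 3 and Ezh1-het 1, 2 and 4 (-0.75 to -0.60) and was lost with median centring (-0.10).

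Of 15 genes tied to group 13 proteins in limb, genital or skin development, 12 were tested, and 3 were higher in the double knockout, 3 in Ezh1-het and 0 in Ezh2-KO (3 at an unadjusted p under 0.05 in limma), with 0 lower in any of the 3 comparisons. Of all genes, 3.71%, 5.91% and 2.4% were higher in these groups. The growth factor gene Fgf8 rose by 0.66 in the double knockout (SE 0.151, limma adjusted p = 0.0167), lost without double knockout 3 (0.63), and by 0.61 in Ezh1-het, lost without Ezh1-het 2, 3 or 4 (0.56 to 0.62). The homeobox gene Msx1 rose by 0.53 in the double knockout (SE 0.124, adjusted p = 0.0193), lost without control 1 (0.50) or double knockout 3 (0.41). In Ezh1-het Ihh and Wnt5a, which encode a hedgehog and a Wnt ligand, rose by 1.25 and 0.69. The call of Ihh ended without control 3 or 4 or Ezh1-het 1, 2 or 4 (0.96 to 1.28). That of Wnt5a ended without control 2 or 3 or any Ezh1-het array (0.55 to 0.73). Each of these calls of Fgf8, Msx1, Ihh and Wnt5a was also lost without controls 2 and 3 together. Those of Fgf8 and Msx1 were lost in the fit of only the groups compared too. Bmp2, Bmp7, Epha7, Enpp2, Aldh1a2, Gli3 and Hand2 passed the threshold in none of the 3 comparisons. Foxn1, Runx2 and Shh were not well above background on any array.

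Markers of other tissues in which group 13 genes are normally active were followed beside these values. Of all genes, 3.71% were called higher and 0.914% lower in the double knockout. In Ezh1-het the shares were 5.91% and 1.9%, and in Ezh2-KO 2.4% and 0.677%. Of the 4 markers of urogenital sinus and prostate 2 were tested, and both, Foxa1 among them, were called higher in the double knockout. The summed Cy5 level of the list was 377 to 500 units there, and 270 to 309 over the other groups. Pbsn and Shh were on no array, and Foxa1 was on 0 arrays outside the double knockout, where it was 1.08 above control (SE 0.13, at least 2.11-fold higher). Foxa1 passed the filter only through that group, so its call is no support for a difference and its p is not given. The list's sum includes Foxa1. Of the 7 markers of limb bud and tail mesoderm 3 were tested. The limb homeobox genes Pitx1 and Prrx1 rose in the double knockout by 1.35 (SE 0.203) and 1.39 (SE 0.114), with limma adjusted p of 0.000647 and 1.81e-06. The sum was 1300 to 1680 there, against 697 to 761 in controls, 801 to 884 in Ezh2-KO and 837 to 937 in Ezh1-het. Prrx1 was also higher in Ezh1-het (0.62, limma adjusted p = 0.00434). Tbx6, also tested, was at 0.17 in the double knockout (SE 0.162, limma adjusted p = 0.651). Tbx4, T and Cdx4 were on no array.

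The shares of all genes just given apply to the next lists too. Of 9 urothelial markers 4 were tested, and 1, Upk1a, rose in the double knockout (1.04, SE 0.229, limma adjusted p = 0.0128). This call was lost without double knockout 3 (0.92) and without controls 2 and 3 (0.89). The sums overlapped (4690 to 7820 in controls, 4100 to 4940 in Ezh2-KO, 3970 to 5350 in Ezh1-het, 4430 to 6240 in the double knockout). Of 7 hindgut markers 5 were tested, with 0 called in the double knockout and 1, Cdx1, in Ezh1-het (0.38, lost without any array of the comparison but Ezh1-het 3, 0.30 to 0.42). Cdx2 and Cdh17 were on no array, and the sums were 792 to 1460 in controls and 888 to 1110 in the double knockout. Of the markers of ureter smooth muscle (6 tested), adrenal cortex (4) and gonad (3), 0 were called in any comparison with control. Of the 7 nephron progenitor markers Cited1 was called lower in all 3 mutant groups (Ezh2-KO -0.69, double knockout -0.90, Ezh1-het -0.79, SE 0.132), and so was Crym (-0.66, -0.85 and -0.90 in the same order, SE 0.172). All 6 calls ended with median centring (-0.31 to -0.09), and that of Crym in Ezh2-KO without any 1 of the 8 arrays (-0.74 to -0.48). Meox1 was called lower in Ezh1-het (-0.90), lost without control 3 or Ezh1-het 1 or 3 (-0.84 to -0.72) and with median centring (-0.51). The sum was 37300 to 55900 in the double knockout against 52500 to 87400 in controls. Of 12 markers of other kidney cells 11 were tested. The stromal gene Foxd1 was called higher in the double knockout (0.72), lost without control 2 or 4 or double knockout 1, 3 or 4 (0.51 to 0.76). The podocyte gene Nphs1 was called higher in Ezh1-het (0.94), lost without Ezh1-het 4 (0.90) and without controls 2 and 3 together (0.70). The part of any of these cell types in the group 13 values was not tested.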

How the data were processed

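Per the file headers, Agilent Feature Extraction 10.7.3.1 made the deposited intensity columns (median spot and background intensity per dye), and the deposited log10 ratio of its processed signals. The authors' table of log10 values matched this ratio within 0.005, with a median of 0 on every array, so its scale, centring and direction are those of the software. Scanner files gave medians, not the means that had been planned. Median intensities were corrected with normexp (offset 50), normalised by loess within arrays with control spots at weight 0, and averaged per probe, in limma 3.58.1 under R 4.3.3. Deposited log10 ratios, turned to log2, served as an alternative. Probes were kept whose Cy5 signal was well above background on 4 or more of 16 arrays, the brightest per gene standing for it (15646 genes). All 16 arrays were fitted with lmFit and eBayes, two-sided, with Benjamini-Hochberg adjustment (threshold 0.05), and its p-values measure only the spread among these samples. The SE of members is that of this fit. A bound written "at least" is the smaller of the ratio's fold and the Cy5 level, after Aquantile scaling, over the dimmest signal well above background or the probe's own. In each case given it was the ratio's fold. The arrays' number limits the precision. Symbols came from a RefSeq table (GRCm38.p6) by accession. Upstream sequences are RefSeq's, of the same build.

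The members and all gene lists were chosen with earlier results of these data known. Named were the members, all measured genes of Hox groups 9 to 12 and of the cluster flanks, called genes of the other Hox groups, the partners and the linked genes, and the 5 genes most correlated with each member. Flank genes other than Evx1, Evx2, Hottip, Skap2 and Hoxb5os were summarised, and some genes that these rules name are not reported here. The fit was tested on simulated data. Alternatives were offset 10, no background correction, median centring, the software's ratio, no or a stricter filter, the mean of a gene's probes, slide or replicate blocks, 2-group fits, trend and robust variance, array weights, each slide alone, and arrays left out. Cy5 alone, the Cy5 level after loess and Aquantile scaling of both dyes, was added after seeing the data.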

Additional observations from a re-analysis of the deposited data

Results flagged for a closer look

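In the double knockout, Hoxa13 on array 4 (1.11) lay apart from the other 3 arrays (1.57 to 1.66), with a gap of 0.833 of the group's range. In the Ezh1-het group, Hoxd13 on array 2 (1.29) lay apart from the others (1.04 to 1.07), with a gap of 0.877 of the range. Both passed the critical value for 4 samples, which chance passes in about 1 in 20 groups, and 16 groups were examined. The Hoxb13 probe gave Cy3 signal well above background on Ezh1-het 2 (29 units), Ezh1-het 3 (42.5), Ezh1-het 4 (28) and double knockout 3 (27), in the reference channel, where every array carried the same control 1 RNA.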

How the results depend on the processing

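The double-knockout values of Hoxa13, Hoxb13, Hoxc13 and Hoxd13 kept their direction in all 18 settings tried for them, and their size depended on how dim signals were treated. In that order they were 2.31, 3.29, 1.48 and 3.67 with offset 10, 2.01, 2.99, 1.21 and 3.33 without background correction, 1.85, 2.96, 1.07 and 3.06 with median centring, 4.40, 5.46, 2.43 and 5.91 with the software's ratio and 1.94, 3.06, 1.24 and 3.01 with Cy5 alone. Hoxc13 was at 0.97 with array weights. Within slides 1 and 2 Hoxa13 was at 1.66 and 1.19 and Hoxd13 at 2.19 and 2.74. With 1 array left out the 4 ranged over 1.37 to 1.55, 2.10 to 2.46, 0.70 to 0.88 and 2.38 to 2.57. In Ezh1-het they were 1.87, 1.54, 0.55 and 2.10 with offset 10, 1.49, 1.39, 0.41 and 1.70 without background correction and 3.47, 2.21, 1.22 and 4.22 with the software's ratio. Median centring gave 1.48 for Hoxb13, 1.34 for Hoxd13 and -0.002 for Hoxc13, a reversal whose cause was not tested. Cy5 alone gave 1.84 for Hoxb13 and 1.33 for Hoxd13, and Hoxa13 was at 1.20 and 0.67 within slides 1 and 2. With 1 array left out they ranged over 0.86 to 1.00, 0.87 to 1.06, 0.16 to 0.23 and 1.08 to 1.22. In Ezh2-KO the software's ratio gave 0.46 for Hoxa13, 0.73 for Hoxb13 and 1.34 for Hoxd13, median centring -0.13 for Hoxa13 and -0.32 for Hoxc13, and offset 10 gave 0.33 for Hoxd13, which was at -0.10 and 0.38 within slides 1 and 2. With 1 array left out they ranged over 0.01 to 0.11, 0.06 to 0.16, -0.02 to 0.02 and 0.07 to 0.22.

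Counts of all genes called against control (482 in Ezh2-KO, 1222 in Ezh1-het, 723 in the double knockout) became 6839, 8037 and 5364 with median centring, which moved the median of all genes to 0.41, 0.44 and 0.38 from 0.06, 0.05 and 0.01. Of the calls, 78.0%, 75.7% and 80.2% were higher, and 97.5%, 96.4% and 96.8% with median centring. Array weights gave 2396, 2384 and 1961, slide 1 alone 162, 138 and 229, slide 2 alone 6, 37 and 113, and leaving out controls 2 and 3 gave 78, 235 and 450. Fits of only the groups compared gave 59 in Ezh2-KO and 442 in the double knockout. With 1 array left out the counts were 202 to 515, 487 to 1189 and 441 to 922. Calls among Hox groups 9 to 12 in Ezh2-KO (0) became 4 with median centring and 2 with array weights, and 0 to 1 with 1 array left out. In Ezh1-het (0) they became 2 with median centring, the mean of a gene's probes or trend and robust variance, 1 with the software's ratio, the slide block or array weights, and 0 to 2 with 1 array left out. In the double knockout (2) they became 1 with the stricter filter, which Hoxc12 failed, with only the groups compared, within slide 1 or without controls 2 and 3, 0 within slide 2 and 5 with array weights, and 1 to 2 with 1 array left out. Median centring turned Hoxb5os (0.088) in Ezh1-het. Of 22 calls of named Hox, flank, partner and linked genes, 16 were lost without controls 2 and 3 and 13 in fits of only the groups compared. Median centring lost 6, besides Hoxb5os in Ezh1-het, and the software's ratio 5. The same calls recur among these losses, so the counts do not add up.

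With the replicate number as a block, 462, 1125 and 740 genes were called, and 0, 0 and 2 of Hox groups 9 to 12. Same-numbered arrays correlated at -0.478 to 0.515 in their deviations from group means, with 8 of 24 pairs over 0.1, so the numbers were not taken as pairs. Under that block Ihh, Wnt5a and Meis1 in Ezh1-het were no longer called. In controls no signal of the 4 probes was well above background. In Ezh2-KO only Hoxa13 on 1 array and Hoxd13 on 2 were. This limits every fold, and 4 arrays a group limit the rest.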
